A study of Mus musculus with 28 samples.

Results

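MHC class II genes, the genes that load them and their regulators were followed through all 28 RNA-seq libraries of a transplanted mouse lung cancer model. A row of the deposited table was taken as a member if its symbol was H2-Aa, H2-Ab1, H2-Eb1, H2-DMa, H2-DMb1, H2-DMb2, Cd74, Ciita or Ifi30, and 9 of these 9 genes were listed, each by 1 of the 43143 rows. The cells were 3LL, the Lewis lung carcinoma line, either WT, KEAP1-KO (a CRISPR-Cas9 clone grown from a single colony, with a frameshift insertion in Keap1), or DKO (a clone made from KEAP1-KO cells by also cutting Nfe2l2, the gene of NRF2). KEAP1 is the adaptor that targets the transcription factor NRF2 for degradation, so its loss activates NRF2. There were 12 libraries of cultured cells, 4 of each genotype, and 16 libraries of subcutaneous tumors, 4 in each of 4 groups. Tumors grew for 10 days in both flanks of albino C57BL/6 males that were 6 weeks old at transplantation. Mice of Experiment A carried WT cells in the left flank and KEAP1-KO cells in the right flank. Mice of Experiment B carried KEAP1-KO cells in the left flank and DKO cells in the right flank. The hosts themselves were not edited, so host cells in every tumor group carried intact Keap1 and Nfe2l2, and genotype and flank cannot be told apart within an experiment. WT is the parental line and the edited lines were grown from single colonies, so genotype and clone cannot be told apart either. More than 1 KEAP1-KO line was made, and whether the same one was used for cells and for both experiments is not given in the sources used here. The labels do not say whether the 4 libraries of cultured cells came from separate cultures, so p-values in cells measure only the spread between those libraries.

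MHC class II molecules display peptides from endosomes to CD4+ T cells. They are made mainly by dendritic cells, macrophages and B cells, and interferon gamma can induce them in other cells. CIITA, the product of Ciita, is the coactivator that switches the family on, and it is recruited by RFX, CREB and NF-Y proteins bound to X and Y boxes in the promoters. H2-Aa and H2-Ab1 encode the chains of H2-A. H2-Eb1 encodes the beta chain of H2-E, which C57BL/6 mice do not display because their alpha chain gene is defective. The invariant chain, encoded by Cd74, guides new class II molecules to endosomes, and H2-DM, encoded by H2-DMa with H2-DMb1 or H2-DMb2, then exchanges the last fragment of the invariant chain for a peptide. Ifi30 encodes GILT, the thiol reductase that opens disulfide bonds of antigens in these compartments.

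The promoters of the members are shown first, because the members differed in where they were found: H2-Aa and H2-Eb1 were read in tumors and hardly in cells, while H2-DMa, H2-DMb1 and Ifi30 were read in both. RefSeq windows of 300 bases (250 before the transcription start and 50 after it, build GRCm38.p6), matched by symbol, were used for 6 of the 9 members, with H2-DMa in 2 windows. None was used for H2-Ab1, Cd74 or Ciita, and the matching skipped a chromosome that holds none of the 6. The letters TGATTGG of the Y box, CNGATGATG of the X box, TGACGTCA of the cyclic AMP response element and TGACNNNGC of the antioxidant response element bound by NRF2 were searched on both strands, and matches are in capitals. These letters were chosen after the sequences had been read. The H2-Aa window is chr17:34287774-34288073 on the minus strand, that of H2-Eb1 is chr17:34305617-34305916 on the plus strand, that of H2-DMb1 is chr17:34152941-34153240 on the plus strand, the upstream one of H2-DMa is chr17:34122582-34122881 on the plus strand, and that of Ifi30 is chr8:70766614-70766913 on the minus strand.
H2-Aa: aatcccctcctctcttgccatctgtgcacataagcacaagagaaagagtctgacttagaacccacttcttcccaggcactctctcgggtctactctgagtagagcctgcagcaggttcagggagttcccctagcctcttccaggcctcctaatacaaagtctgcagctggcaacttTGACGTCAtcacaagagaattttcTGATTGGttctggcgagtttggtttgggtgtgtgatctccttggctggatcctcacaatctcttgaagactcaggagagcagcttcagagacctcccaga
H2-Eb1: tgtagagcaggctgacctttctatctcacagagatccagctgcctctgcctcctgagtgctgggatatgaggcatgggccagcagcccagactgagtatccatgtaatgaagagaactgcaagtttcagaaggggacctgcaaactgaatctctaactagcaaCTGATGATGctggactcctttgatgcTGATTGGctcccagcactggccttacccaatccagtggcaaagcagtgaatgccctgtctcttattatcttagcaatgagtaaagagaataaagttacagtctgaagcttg
H2-DMb1: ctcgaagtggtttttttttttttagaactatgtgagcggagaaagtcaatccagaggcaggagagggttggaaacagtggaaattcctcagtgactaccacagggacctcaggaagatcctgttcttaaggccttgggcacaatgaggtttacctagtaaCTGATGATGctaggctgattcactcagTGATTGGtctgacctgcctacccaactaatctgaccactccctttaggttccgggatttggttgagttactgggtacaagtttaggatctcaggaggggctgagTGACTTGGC
H2-DMa: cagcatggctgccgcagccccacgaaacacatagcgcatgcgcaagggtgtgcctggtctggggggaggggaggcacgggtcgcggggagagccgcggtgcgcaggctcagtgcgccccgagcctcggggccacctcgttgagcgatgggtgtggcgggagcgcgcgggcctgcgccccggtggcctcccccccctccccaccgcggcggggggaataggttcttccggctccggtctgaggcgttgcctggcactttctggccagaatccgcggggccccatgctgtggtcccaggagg
Ifi30: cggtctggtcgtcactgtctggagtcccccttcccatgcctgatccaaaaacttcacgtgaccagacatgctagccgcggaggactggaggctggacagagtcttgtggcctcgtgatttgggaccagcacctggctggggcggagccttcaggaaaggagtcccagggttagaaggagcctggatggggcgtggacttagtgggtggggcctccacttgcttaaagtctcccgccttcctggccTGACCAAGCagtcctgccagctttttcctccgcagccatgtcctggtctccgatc

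The Y box letters stood in 4 of the 7 member windows, those of H2-Aa, H2-Eb1, H2-DMb1 and H2-DMb2, and in 7.82% of the 32851 promoters of the same length. The X box letters stood in 3 of the 7, those of H2-Eb1, H2-DMb1 and H2-DMb2, and in 0.956% of all promoters (314 promoters). In H2-DMb1 the X box letters began 90 bases and the Y box letters 63 bases before the start, and in H2-Eb1 they began 87 and 61 bases before it. H2-Aa held the Y box letters 50 bases before the start and, 74 bases before it, the cyclic AMP response element, which 1.79% of promoters hold. The antioxidant response element letters stood in 3 of the 7 windows, those of Ifi30, H2-DMb1 and H2-DMb2, against 12.4% of all promoters, and the match in H2-DMb2 lies on the other strand. None of these letters was in either H2-DMa window. A match is a description of the letters and not a site in use.

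Most member rows are 1 transcript of the gene and not its total, which sets what each value can show. Ifi30 and H2-DMb2 are gene rows. Cd74, Ciita, H2-Aa, H2-Ab1 and H2-DMb1 are listed by a retained-intron transcript, H2-Eb1 by a transcript marked for nonsense-mediated decay, and H2-DMa by a processed transcript, per GENCODE vM21. The share of the row's bases that lies in exons of coding transcripts was 24.4% for H2-Aa, 37.6% for H2-DMa, 54.2% for H2-Ab1, 62.5% for H2-DMb1, 84.4% for Ciita and 85.8% for Cd74. The H2-DMa row begins 3244 bases before the RefSeq start printed above and overlaps Brd2, the chromatin reader gene next to it, on the opposite strand, and the Ciita row overlaps Dexi on the opposite strand. The H2-DMb1 row begins 2046 bases after the RefSeq start of its printed window, so the letters described for it do not stand at the start of the row. The libraries were made with a directional kit, but whether the counting used strand is not given in the sources used here. A further 8 rows of the member genes carry no symbol.

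The table holds log2(normalized count + 4), so a row with 0 reads has the value 2, and all values below are on this scale unless called normalized counts. Recovered depth was 4222377 to 7524280 reads per library. Keap1 followed the labels, being at 9.35 to 9.56 in WT cells and at 7.30 to 7.65 in KEAP1-KO and DKO cells, and Nqo1, a target of NRF2, was at 8.90 to 9.15 in WT cells, 12.31 to 12.54 in KEAP1-KO cells and 6.65 to 6.86 in DKO cells. In tumors Keap1 was at 8.78 to 8.98 in WT and at 7.13 to 7.86 in the other groups. The Nfe2l2 row, a processed transcript, did not separate DKO cells (4.58 to 5.46) from KEAP1-KO cells (4.64 to 5.17).

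Cultured 3LL cells of every genotype were almost without reads of H2-A, H2-E, the invariant chain and Ciita, but held reads of all H2-DM genes and of Ifi30. Over the 12 cell libraries, with 78662563 reads in all, H2-Aa had 0 reads, H2-Ab1 1, H2-Eb1 1, Ciita 4 and Cd74 7. H2-DMb2 had 46 reads, H2-DMa 178, H2-DMb1 320 and Ifi30 6786, and each of these was read in 12 of 12 cell libraries. A count of 0 in a group allows up to 3 reads in it, and these limits cover counting error only. The summed normalized count of 4 leukocyte markers was at most 7.51 in any cell library and at least 314.9 in any tumor. Ptprc, the gene of CD45, had 1 read over the WT, 5 over the KEAP1-KO and 0 over the DKO cell libraries.

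**Figure D1:**
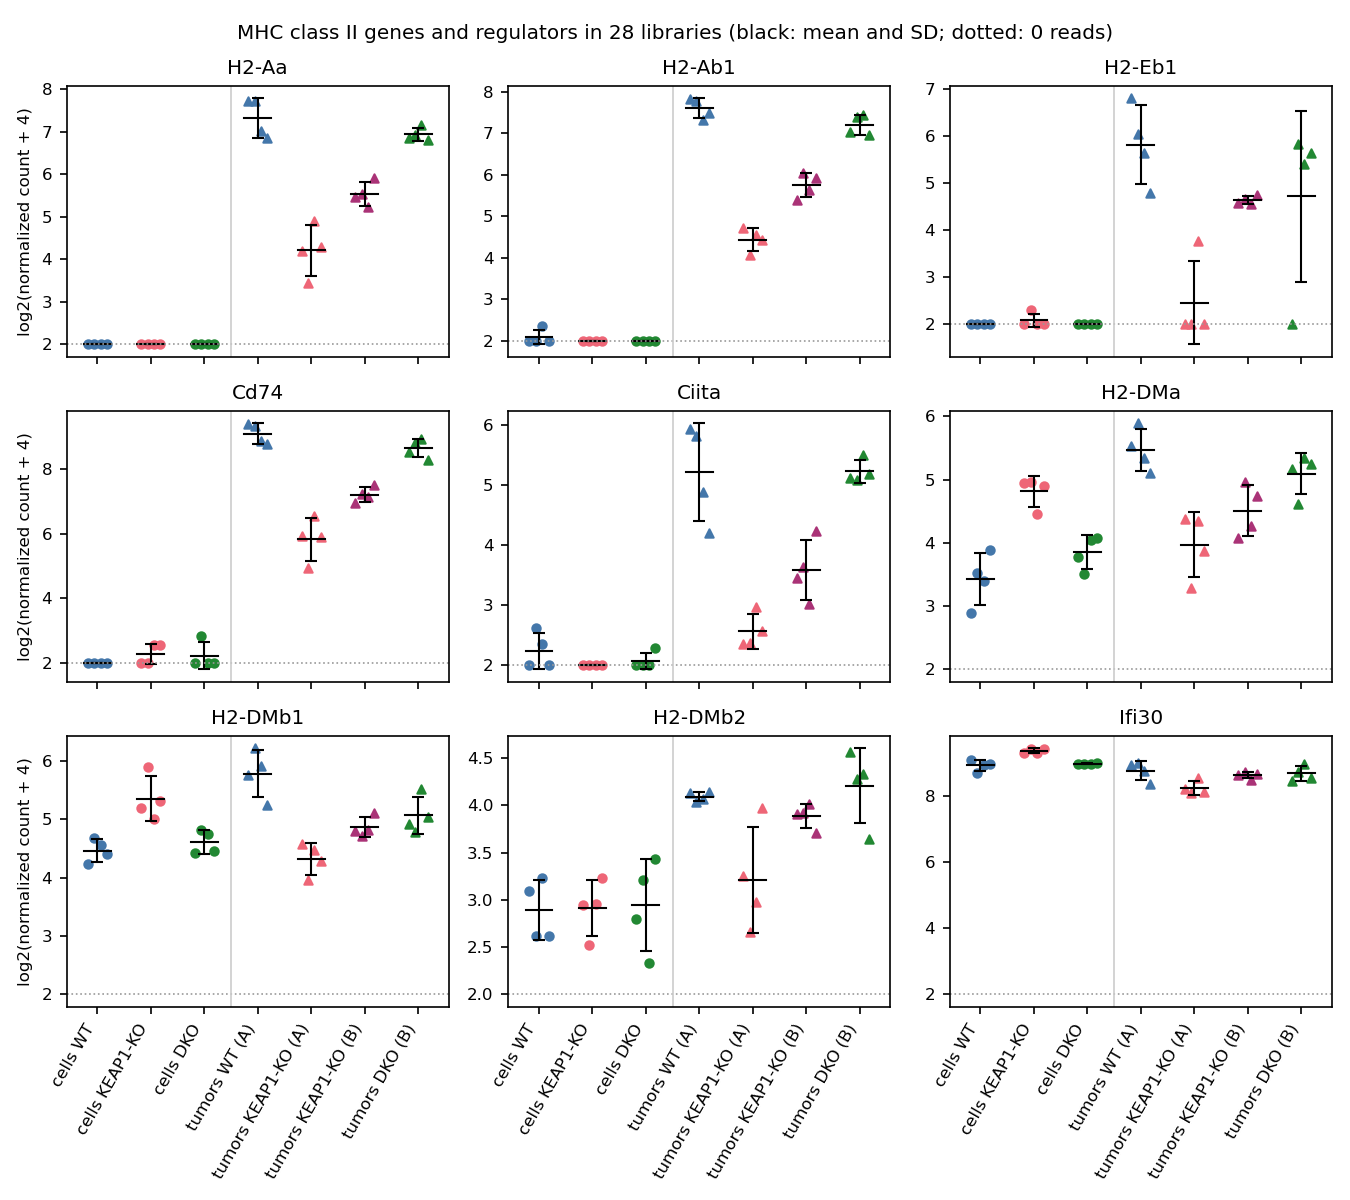
Each point is 1 library and the y axis is log2(normalized count + 4), for 9 members in 3 groups of cultured cells (circles) and 4 groups of tumors (triangles), with the mean and SD of each group in black and 0 reads as a dotted line. H2-Aa is at 0 reads in every cell library and between 3.45 and 7.72 in tumors, while Ifi30 lies between 8.09 and 9.45 in all libraries.

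In tumors of Experiment A, which carried WT and KEAP1-KO cells in opposite flanks of the same mice, 9 of 9 members were lower in KEAP1-KO tumors (limma, Benjamini-Hochberg adjustment over 34215 rows), against 7.49% of all rows tested that fell. The calls of H2-DMb2, Ifi30, H2-Eb1, Ciita and H2-DMa were each lost under 1 or more settings, as given with their values, and 6 of 9 were called with voom. The antigen-presenting chains, the invariant chain and Ciita fell by 2.64 to 3.38, the H2-DM genes by 0.88 to 1.50 and Ifi30 by 0.52. The median difference over the 9 members was -2.64 and that over all rows tested was -0.03. In bulk tumors fewer cells of a type and less RNA per cell cannot be told apart. Leukocyte markers moved with the members: 4 of 4 fell, and Ptprc fell by 2.32 (adjusted p = 2.44e-08), and their part in the result was not tested. The summed normalized count of the 4 leukocyte markers was 1433 to 1837 in WT tumors and 314.9 to 358.2 in KEAP1-KO tumors of this experiment.

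Cd74, the invariant chain gene, was at 9.40, 9.35, 8.88 and 8.78 in the 4 WT tumors and at 5.92, 4.94, 6.55 and 5.89 in the 4 KEAP1-KO tumors. All WT tumors were above all KEAP1-KO tumors, as in 9.05% of all rows tested for this direction, and the means in normalized counts were 556.2 ± 122.3 and 57.2 ± 25.9 (SD, n = 4 each). The difference was -3.28 ± 0.26 (SE, adjusted p = 4.42e-07).

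H2-Aa, the alpha chain gene of H2-A, was at 7.72, 7.72, 7.01 and 6.85 in WT tumors and at 4.21, 3.45, 4.91 and 4.29 in KEAP1-KO tumors. H2-Ab1, the beta chain gene, was at 7.83, 7.77, 7.31 and 7.50 in WT tumors and at 4.71, 4.06, 4.54 and 4.43 in KEAP1-KO tumors. Neither gene overlapped between the groups. H2-Aa differed by -3.11 ± 0.27 (SE, adjusted p = 1.04e-06) and H2-Ab1 by -3.16 ± 0.18 (SE, adjusted p = 1.46e-08).

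H2-Eb1 was at 6.80, 6.04, 5.63 and 4.80 in WT tumors and was read in 1 of 4 KEAP1-KO tumors, at 3.77. The difference of -3.38 ± 0.70 (SE, adjusted p = 0.00348) was lost with voom on the recovered reads (adjusted p = 0.455). Every base of its row is shared with other transcripts of the gene, so reads can be assigned to one row or another. Summing all 4 rows of H2-Eb1, an alternative chosen after the data were seen, gave 40.7 to 147 normalized counts in WT tumors and 0 to 10.4 in KEAP1-KO tumors, a difference of -3.51 (adjusted p = 7.75e-06).

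Ciita, the coactivator gene, was at 5.92, 5.82, 4.89 and 4.20 in WT tumors and at 2.35, 2.37, 2.98 and 2.57 in KEAP1-KO tumors, which held 8 reads of it in all. It fell by 2.64 ± 0.35 (SE, adjusted p = 6.64e-05), and this call was lost with voom (adjusted p = 0.0596). WT tumors 1 and 2 were the highest of their group for Cd74, H2-Aa, H2-Ab1, H2-Eb1 and Ciita.

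The peptide exchange genes fell less. H2-DMa was at 5.53, 5.89, 5.34 and 5.11 in WT tumors and at 4.37, 3.29, 4.35 and 3.88 in KEAP1-KO tumors, a difference of -1.50 ± 0.27 (SE, adjusted p = 0.00142). H2-DMb1 was at 5.76, 6.22, 5.92 and 5.25 in WT tumors and at 4.59, 3.96, 4.48 and 4.29 in KEAP1-KO tumors, a difference of -1.46 ± 0.22 (SE, adjusted p = 0.000239). The groups did not overlap for either gene. When all 3 rows of H2-DMa were summed, the difference was -0.55 and was no longer called (adjusted p = 0.0643). Another row of the gene, ENSMUST00000235910, was at 2.71 to 3.13 in WT tumors and at 3.73 to 4.02 in KEAP1-KO tumors. By limma it was called in the other direction, with a rise of 0.88 (adjusted p = 0.0497).

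H2-DMb2, the second beta chain gene of H2-DM, was at 4.03 to 4.14 in WT tumors and at 2.66 to 3.97 in KEAP1-KO tumors, and Ifi30 was at 8.37 to 9.02 and at 8.09 to 8.57, with overlap. H2-DMb2 differed by -0.88 ± 0.26 (SE, adjusted p = 0.0391) and Ifi30 by -0.52 ± 0.14 (SE, adjusted p = 0.0255). Neither call was stable. That of H2-DMb2 was lost with no filter, quantile normalization, median centring, voom and only the groups compared (adjusted p = 0.0506 to 0.0984), and that of Ifi30 with no trend (0.0576) and only the groups compared (0.0675). The H2-DMb2 call was also lost without any library other than KEAP1-KO tumor 4 (adjusted p up to 0.122, without KEAP1-KO tumor 2), and the Ifi30 call without any other than WT tumor 4 and KEAP1-KO tumor 3 (up to 0.0866, without WT tumor 2).

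**Figure D2:**
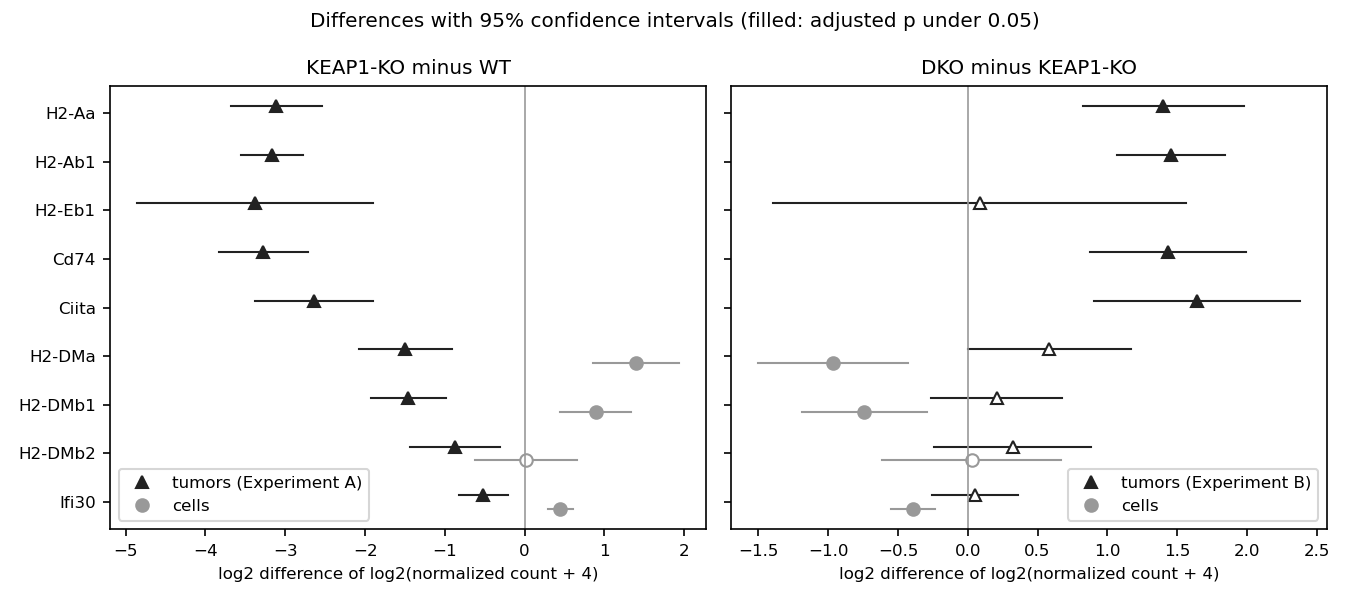
Points are log2 differences with 95% confidence intervals from limma, KEAP1-KO minus WT on the left and DKO minus KEAP1-KO on the right, in tumors (triangles) and cultured cells (circles), filled where the adjusted p is under 0.05. On the left H2-DMa is at -1.50 in tumors and at 1.39 in cells, and members without a circle had too few reads in cells to be tested.

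In cultured cells KEAP1-KO was compared with WT without any infiltrate, and the H2-DM genes and Ifi30 were the only members with enough reads to test. Here 3 of 4 members tested were higher in KEAP1-KO cells, the opposite direction to the tumors, against 8.13% of all rows tested that rose. H2-DMa was at 2.89, 3.53, 3.39 and 3.88 in WT cells and at 4.95, 4.96, 4.45 and 4.91 in KEAP1-KO cells, a difference of 1.39 ± 0.25 (SE, adjusted p = 0.00174). H2-DMb1 was at 4.23, 4.68, 4.55 and 4.40 in WT cells and at 5.19, 5.90, 5.01 and 5.32 in KEAP1-KO cells, a difference of 0.89 ± 0.21 (SE, adjusted p = 0.0106). All KEAP1-KO libraries were above all WT libraries for both genes, as in 9.9% of all rows tested.

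Ifi30 was at 9.10, 8.72, 8.95 and 8.98 in WT cells and at 9.32, 9.44, 9.33 and 9.45 in KEAP1-KO cells, again without overlap. Its mean rose from 488.6 ± 53.4 to 664.7 ± 32.7 normalized counts (SD, n = 4 each), a difference of 0.45 ± 0.07 (SE, adjusted p = 0.000937). H2-DMb2 was at 2.62 to 3.24 in WT cells and at 2.52 to 3.23 in KEAP1-KO cells, a difference of 0.02 with a 95% interval of -0.62 to 0.66 (adjusted p = 0.979).

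The difference in H2-DMa between cells was 0.90 (adjusted p = 0.00419) when its 3 rows were summed. Rows of Brd2, which overlaps the listed H2-DMa row on the opposite strand, moved the same way: 6 of 11 tested rows rose in KEAP1-KO cells, with a median of 0.76. The part of Brd2 reads in the H2-DMa value was not tested. In tumors of Experiment A the listed H2-DMa row fell, while 2 of 10 Brd2 rows rose and none fell.

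The same genes were lower where NRF2 was deleted as well. In DKO cells 3 of 4 members tested were lower than in KEAP1-KO cells, against 4.85% of all rows tested that fell. H2-DMa was at 3.78, 3.51, 4.05 and 4.07 in DKO cells (difference -0.96 ± 0.25 SE, adjusted p = 0.0284), H2-DMb1 at 4.43, 4.82, 4.76 and 4.45 (-0.74 ± 0.21 SE, adjusted p = 0.0441) and Ifi30 at 8.98, 8.97, 8.99 and 9.02 (-0.39 ± 0.07 SE, adjusted p = 0.00401). No DKO library reached the KEAP1-KO range for any of these 3 genes, a pattern that 7.84% of all rows tested showed. Leaving out single libraries removed the H2-DMb1 call unless it was KEAP1-KO library 3 (adjusted p up to 0.118, without KEAP1-KO library 2) and the H2-DMa call unless it was KEAP1-KO library 3 or DKO library 3 or 4 (up to 0.0818, without KEAP1-KO library 2), while the Ifi30 call held each time. The H2-DMa call was also lost with a pseudocount of 0.4 (adjusted p = 0.0555), and the H2-DMb1 call with no filter (0.0594), quantile normalization (0.0504) and only the groups compared (0.0737). Rows of Brd2 moved with H2-DMa here too, with 5 of 11 lower and a median of -0.60, and their part in the result was not tested.

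Between DKO and WT cells, 0 of 4 members tested were called with limma, 0 were called with voom, and 0 of the 4 had an unadjusted p under 0.05. The differences and 95% intervals were 0.43 (-0.11 to 0.97) for H2-DMa, 0.15 (-0.30 to 0.60) for H2-DMb1, 0.05 (-0.59 to 0.69) for H2-DMb2 and 0.05 (-0.10 to 0.21) for Ifi30. Of all rows tested, 17.7% differed between these cells.

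In tumors of Experiment B, 4 of 9 members were higher in DKO than in KEAP1-KO tumors, against 4.22% of all rows tested that rose. The 4 were the H2-A genes, the invariant chain gene and Ciita, and none of the 3 H2-DM genes was called. Cd74 was at 6.96, 7.23, 7.14 and 7.51 in KEAP1-KO tumors and at 8.54, 8.81, 8.92 and 8.30 in DKO tumors, a rise of 1.43 ± 0.26 (SE, adjusted p = 0.00213). H2-Aa was at 5.46, 5.55, 5.23 and 5.92 in KEAP1-KO tumors and at 6.86, 6.92, 7.17 and 6.81 in DKO tumors, a rise of 1.40 ± 0.27 (SE, adjusted p = 0.00312). All DKO tumors were above the KEAP1-KO range for the 4 genes, as in 7.14% of all rows tested.

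H2-Ab1 was at 5.39, 6.03, 5.63 and 5.92 in KEAP1-KO tumors and at 7.02, 7.38, 7.44 and 6.97 in DKO tumors, a rise of 1.46 ± 0.18 (SE, adjusted p = 7.18e-05). Ciita was at 3.46, 3.63, 3.01 and 4.22 in KEAP1-KO tumors and at 5.12, 5.08, 5.50 and 5.19 in DKO tumors, a rise of 1.64 ± 0.35 (SE, adjusted p = 0.00612). Leukocyte markers moved with these genes too, since 4 of 4 rose, with sums of 497.1 to 684.9 in KEAP1-KO and 959.3 to 1532 in DKO tumors, and Ptprc rose by 1.02 (adjusted p = 0.000178).

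H2-Eb1 was at 4.54 to 4.73 in KEAP1-KO tumors and at 2 (0 reads), 5.82, 5.39 and 5.65 in DKO tumors, a difference of 0.08 ± 0.70 (SE, adjusted p = 0.971). DKO tumor 1 alone stood at 0 reads in the listed row, and it held 46 reads in the other rows of the gene. With all 4 rows summed, DKO tumors had 50.4 to 95.8 normalized counts and KEAP1-KO tumors 24.9 to 34.4, a difference of 1.23 (adjusted p = 0.0504).

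The H2-DM genes overlapped between the groups of Experiment B. H2-DMa was at 4.08, 4.95, 4.26 and 4.73 in KEAP1-KO tumors and at 5.16, 4.62, 5.34 and 5.25 in DKO tumors (difference 0.58, 95% interval 0.00 to 1.17, adjusted p = 0.242). H2-DMb1 differed by 0.21 (-0.26 to 0.67, adjusted p = 0.68), H2-DMb2 by 0.32 (-0.24 to 0.88, adjusted p = 0.567) and Ifi30 by 0.05 (-0.25 to 0.36, adjusted p = 0.893).

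KEAP1-KO cells grew in both experiments, so their tumors could be compared across them. The median difference over the 9 members, Experiment B minus Experiment A, was 1.01, and H2-Ab1 rose (1.31 ± 0.18 SE, adjusted p = 0.0141), as 1 of 9 members against 0.152% of all rows tested that rose. Cd74 (1.38, adjusted p = 0.0507) and H2-Aa (1.32, adjusted p = 0.0745) did not pass the test but also did not overlap between the experiments, as in 2.55% of all rows tested. Markers moved too: 2 of 4 leukocyte markers rose, with Ptprc higher by 0.81 (adjusted p = 0.0406), and 4 of 8 macrophage markers rose, with C1qb higher by 0.95 (adjusted p = 0.0141), and their part was not tested. Flank, experiment and any difference in the line used cannot be told apart here. The H2-Ab1 call was lost with voom (adjusted p = 0.208) and with only the groups compared (adjusted p = 0.1). It was also lost without KEAP1-KO tumor 1 of Experiment A (adjusted p = 0.0503) and without KEAP1-KO tumor 4 of Experiment B (adjusted p = 0.0624). Without KEAP1-KO tumor 3 of Experiment A, 3 members were called.

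For H2-Aa, H2-Ab1 and Cd74 the order of the group means was therefore WT tumors, DKO tumors, KEAP1-KO tumors of Experiment B, KEAP1-KO tumors of Experiment A and then all cells. The step from WT to DKO tumors was not called for any of these genes. Across the experiments 1 of 9 members was lower in DKO than in WT tumors, H2-DMb1 (-0.72 ± 0.22 SE, adjusted p = 0.0483), with overlap between the groups, against 5.99% of all rows tested that fell. That call was lost when any library other than WT tumor 4 or DKO tumor 3 was left out (adjusted p up to 0.146, without WT tumor 2). It was also lost with a pseudocount of 0.4, no filter, quantile normalization, median centring, no trend, voom and only the groups compared. Cd74 differed by -0.46 (-1.02 to 0.10, adjusted p = 0.326) and Ciita by 0.01 (-0.72 to 0.75, adjusted p = 0.99).

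Each tumor group was also set against cultured cells of its own genotype, which shows which members were read in the cancer cells before transplantation. Host cells in the tumor and expression induced in the cancer cells cannot be told apart by it. H2-Aa, H2-Ab1, H2-Eb1, Cd74 and Ciita entered this fit through the tumors alone, so their calls are not counted and their reads are given as ratios. Of the 4 members with enough reads in cells, the 3 H2-DM genes were higher in WT tumors than in WT cells, against 24.7% of all rows tested that rose. Cd74 was at least 675-fold and H2-Aa at least 197-fold higher, taking 3 reads over the 4 WT cell libraries as the limit that 0 reads allow. H2-Ab1 had 1 read in WT cells and 850 in WT tumors, a ratio of 701 with an exact 95% counting interval of 126 to 2.77e+04.

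For the H2-DM genes the ratios were smaller. H2-DMa was 5.74 times (3.79 to 9.03) and H2-DMb1 2.86 times (2.17 to 3.81) as high in WT tumors as in WT cells, and H2-DMb2 3.68 times (1.99 to 7.32). In KEAP1-KO tumors of Experiment A H2-DMa and H2-DMb1 were at 0.511 (0.356 to 0.724) and 0.428 (0.316 to 0.575) of the KEAP1-KO cells. Ifi30 was at 0.461 (0.430 to 0.493), and H2-DMb2 was at 1.65 (0.836 to 3.35). These intervals cover counting error only. The H2-DMa ratios moved with the rows used: with all 3 rows summed the mean normalized count was 53.6 in WT tumors and 20.3 in WT cells, and for KEAP1-KO it was 35.7 in the tumors (Experiment A) and 41.1 in the cells. By limma, 3 of the 4 members read in cells were lower and none was higher in those tumors than in KEAP1-KO cells, against 15.8% of rows that fell and 23.9% that rose. The lower ones were Ifi30 (-1.13 ± 0.12 SE, adjusted p = 2.88e-08), H2-DMb1 (-1.03 ± 0.21 SE, adjusted p = 0.000297) and H2-DMa (-0.84 ± 0.26 SE, adjusted p = 0.0111). The H2-DMa call was lost without KEAP1-KO tumor 2 (adjusted p = 0.0636).

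KEAP1-KO tumors of Experiment B, set against the same KEAP1-KO cell libraries, held 1 of these 4 members higher, H2-DMb2 (0.97 ± 0.27 SE, adjusted p = 0.00491), and 1 lower, against 23.9% and 14.9% of all rows tested. Ifi30 was again lower (-0.74 ± 0.12 SE, adjusted p = 2e-05), while H2-DMa differed by -0.31 (-0.84 to 0.23, adjusted p = 0.381) and H2-DMb1 by -0.49 (adjusted p = 0.0689, or 0.0375 without KEAP1-KO cell library 3). DKO tumors held 2 of the 4 higher than DKO cells, against 27.6% of all rows tested. They were H2-DMa (1.24 ± 0.26 SE, adjusted p = 0.00032) and H2-DMb2 (1.26 ± 0.27 SE, adjusted p = 0.000359), while H2-DMb1 differed by 0.46 (0.02 to 0.89, adjusted p = 0.0849) and Ifi30 by -0.30 (adjusted p = 0.0525, or 0.0127 without DKO tumor 3).

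The effect of KEAP1 loss was tested for a difference between tumors and cells in 1 fit of 28 libraries. Of the 4 members with enough reads in cells, 3 had a more negative effect in tumors, against 3.88% of all rows tested. For H2-DMa the effects of -1.50 in tumors and 1.39 in cells differed by -2.89 ± 0.37 (SE, adjusted p = 7.23e-06), for H2-DMb1 by -2.35 ± 0.30 (SE, adjusted p = 7.23e-06) and for Ifi30 by -0.97 ± 0.17 (SE, adjusted p = 0.000599). With the rows of H2-DMa summed its difference was -1.45 (adjusted p = 0.000853). For H2-DMb2 it was -0.90 (adjusted p = 0.215). The other 5 members passed the filter through the tumors alone and could not fall in cells, so their values in this fit restate the tumor comparison and are not read as a difference between tumors and cells.

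The effect of NRF2 co-deletion was more positive in tumors than in cells for 1 of the same 4 members, against 2.12% of all rows tested. For H2-DMa the difference was 1.55 ± 0.37 (SE, adjusted p = 0.0135), or 0.95 with its rows summed (adjusted p = 0.0358). H2-DMb1 differed by 0.95 (adjusted p = 0.0859), which was called with its rows summed (1.08, adjusted p = 0.0192), and Ifi30 by 0.45 (adjusted p = 0.203).

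Levels between genes were compared per kb of the listed transcript. In WT cells H2-DMb1 stood at 35.0 ± 5.59 and H2-DMa at 9.50 ± 4.06 normalized counts per kb (SD, n = 4), with H2-Aa, H2-Eb1 and Cd74 at 0. In KEAP1-KO cells H2-DMb1 reached 73.1 ± 23.5 and H2-DMa 33.0 ± 5.93 per kb, while Cd74 stood at 1.31 ± 1.51. In WT tumors the order was Cd74 at 791 ± 174, H2-Ab1 at 249 ± 41.6, H2-DMb1 at 101 ± 29.0, H2-DMa at 55.5 ± 14.2, H2-Eb1 at 55.3 ± 32.9, H2-Aa at 50.5 ± 16 and Ciita at 11.5 ± 6.35 per kb, and H2-DMa, H2-Eb1 and H2-Aa lay within their spread of each other. In KEAP1-KO tumors of Experiment A the H2-DM rows, at 31.4 ± 7.08 for H2-DMb1 and 16.7 ± 7.01 for H2-DMa, stood near or above H2-Ab1 at 23.2 ± 5.17 and H2-Aa at 4.89 ± 2.44 per kb. This order rests on the length correction: in these tumors the ratio of H2-Aa to H2-DMa was 0.294 with it and 1.28 without it, and that of H2-Ab1 to H2-DMb1 0.742 and 1.10. It also rests on the rows listed: in these tumors the summed rows of H2-DMa had a mean of 35.7 normalized counts and the listed row 12.4. In KEAP1-KO tumors of Experiment B H2-Ab1, at 65.3 ± 13.7 per kb, stood above H2-DMb1, at 48.4 ± 6.88. There H2-DMa, at 26.2 ± 8.76 per kb, stood above H2-Aa, at 13.4 ± 3.01.

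**Figure D3:**
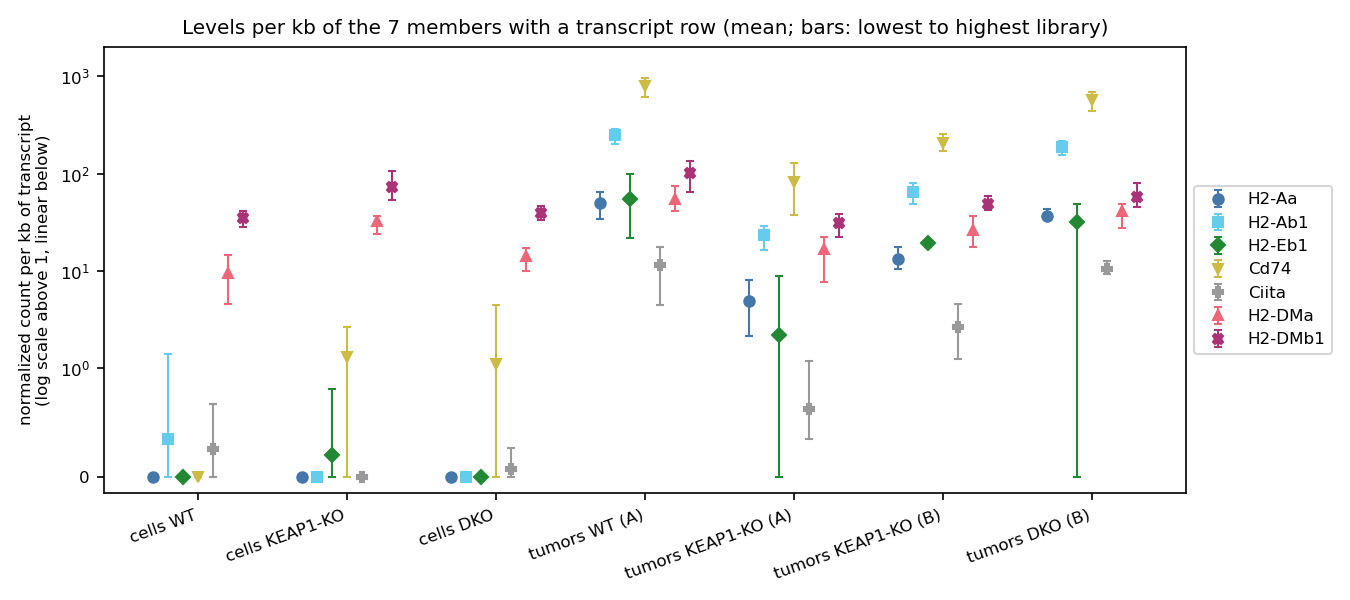
The y axis is the normalized count per kb of the listed transcript (log scale above 1, linear below) for the 7 members with a transcript row, with the mean of 4 libraries as a symbol and bars from the lowest to the highest library. In cells the H2-DMb1 means lie at 35.0 to 73.1 and H2-Aa at 0, while in WT tumors Cd74 is at 791.

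Within each library the H2-DMa value was set against that of H2-Aa, and only the change of this distance between groups is read, since the rows differ in length. H2-DMa stood above H2-Aa by 0.89 to 1.88 in WT cells, 2.45 to 2.96 in KEAP1-KO cells and 1.50 to 2.07 in DKO cells. In tumors it stood at -2.19 to -1.67 in WT, -0.56 to 0.16 in KEAP1-KO of Experiment A, -1.37 to -0.60 in KEAP1-KO of Experiment B and -2.30 to -1.56 in DKO. For this pair the KEAP1-KO groups had the highest distance both among the cells and among the tumors, and no KEAP1-KO tumor overlapped WT or DKO tumors.

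For H2-DMb1 against H2-Ab1 the KEAP1-KO groups again had the highest distances, without overlap with WT or DKO, while WT tumors stood above DKO tumors on average. The distance was 2.21 to 2.68 in WT cells, 3.01 to 3.90 in KEAP1-KO cells and 2.43 to 2.82 in DKO cells. In tumors it was -2.25 to -1.39 in WT, -0.14 to -0.06 in KEAP1-KO of Experiment A, -1.31 to -0.58 in KEAP1-KO of Experiment B and -2.59 to -1.91 in DKO. Because H2-Aa and H2-Ab1 are at or near 0 reads in cells, the cell distances mostly give the level of the H2-DM row itself. For H2-DMb1 against H2-Eb1 KEAP1-KO tumors of Experiment A lay above WT tumors, but those of Experiment B lay inside the WT range and DKO tumors overlapped all groups: the distance was -1.04 to 0.45 in WT, 0.71 to 2.58 in KEAP1-KO of Experiment A, 0.05 to 0.38 in KEAP1-KO of Experiment B and -1.03 to 2.92 in DKO, where the highest value is the tumor with 0 reads in the listed H2-Eb1 row.

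**Figure D4:**
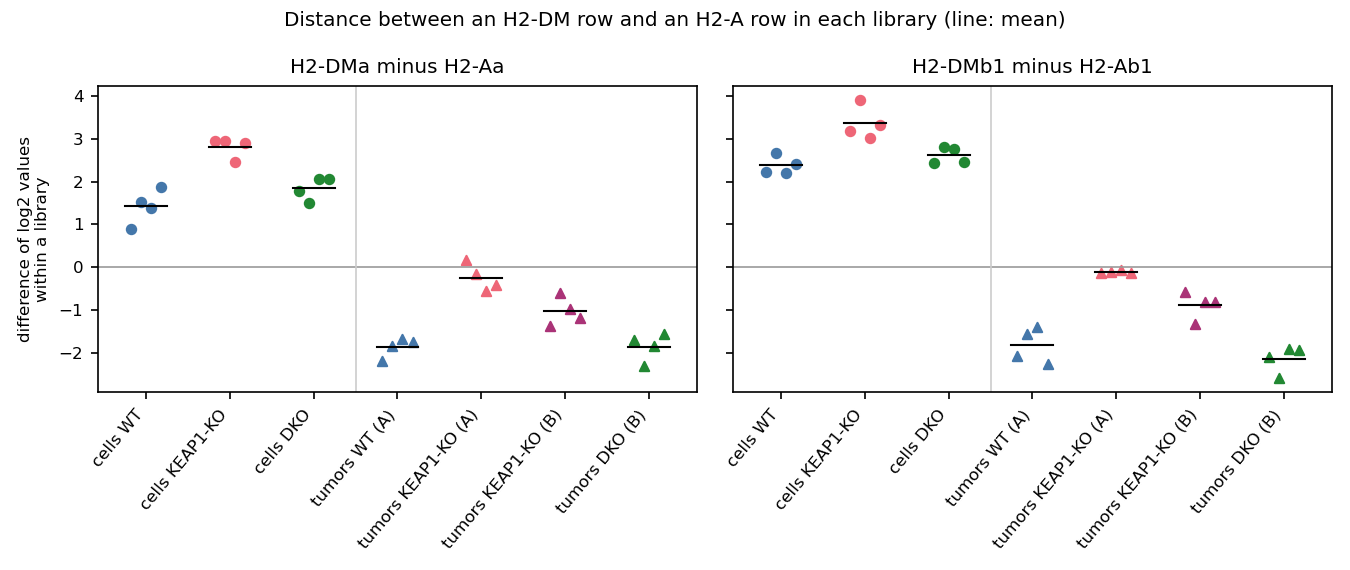
Each point is 1 library and the y axis is the difference between the log2 value of an H2-DM row and that of an H2-A row in that library, with the group mean as a line. Cells lie above 0 and tumors mostly below it, and KEAP1-KO tumors of Experiment A lie between -0.56 and 0.16 on the left.

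Other genes of the pathway were mostly not called. Of 24 listed rows of transcription factors, proteases, turnover and interferon gamma signal genes, 21 were tested in tumors. In KEAP1-KO against WT tumors of Experiment A 4 of 21 fell and none rose, against 7.49% of all rows tested that fell, with a median of -0.11 over the list and -0.03 over all rows. With rows summed per gene 5 of 23 fell and 2 rose, where 2633 of all 16249 genes fell and 1748 rose. Ctss, the gene of cathepsin S that trims the invariant chain, was at 8.97 to 9.56 in WT and 6.95 to 7.52 in KEAP1-KO tumors and fell by 2.17 ± 0.17 (SE, adjusted p = 4.24e-07). Marchf1, a ubiquitin ligase that removes class II from the surface, fell by 1.96 (adjusted p = 0.000107), Irf1, an interferon-induced transcription factor, by 1.91 (adjusted p = 0.0321) and Socs1, an inhibitor of JAK signalling, by 0.74 (adjusted p = 0.00925). The Irf1 row was read in 3 of 4 WT tumors and had 0 reads in all 4 KEAP1-KO tumors, so its fitted value depends on the pseudocount. It passed the filter through these WT tumors and 1 KEAP1-KO tumor of Experiment B. Its call, counted among the 4, could therefore only be lower.

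In Experiment B 2 of 21 pathway rows rose and 1 fell in DKO tumors, against 4.22% and 4.64% of all rows tested. With rows summed per gene 4 of 23 rose and 1 fell, where 1565 of all 16249 genes rose and 1535 fell. Ctss was at 7.67 to 8.38 in KEAP1-KO and 9.25 to 9.75 in DKO tumors and rose by 1.35 (adjusted p = 9.49e-05), Socs1 rose by 0.60 (adjusted p = 0.0421) and Nfyb, a subunit of NF-Y, fell by 0.43 (adjusted p = 0.00425). Between KEAP1-KO tumors of the 2 experiments 1 of 21 rows rose, Ctss (0.95, adjusted p = 0.0471), against 0.152% of all rows tested. Between DKO and WT tumors 1 of 21 fell, the Irf1 row, against 5.99%. The Irf1 row had 0 reads in all 4 DKO tumors and passed the filter through 3 WT tumors and 1 KEAP1-KO tumor. It could therefore not be called higher in DKO tumors. The Ctss and Irf1 calls were both lost with voom and when some single libraries were left out.

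In cells 16 pathway rows were tested. In KEAP1-KO against WT cells 2 fell and none rose, against 7.33% of all rows tested that fell, and with rows summed per gene 3 of 19 fell and 1 rose, where 2137 of all 14458 genes fell and 2331 rose. The 2 were Ap1m1, an adaptor of endosomal sorting, which fell by 0.19 (adjusted p = 0.00746), and Socs1, which fell by 0.34 (adjusted p = 0.0261). In DKO against KEAP1-KO cells 2 of 16 rose and 1 fell, against 3.98% and 4.85% of all rows tested: Ap1m1 rose by 0.28 (adjusted p = 0.000801), Socs1 rose by 0.45 (adjusted p = 0.00797) and Ctsb, the gene of cathepsin B, fell by 0.79 (adjusted p = 0.0473), and Ctsb was also lower in DKO than in WT cells (fell by 0.71, adjusted p = 0.046), as 1 of 16 against 9.2% of all rows tested. Ctss had 3 reads over all 12 cell libraries.

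Ctss and Marchf1 were too low in cells for a test there. The RFX rows, which bind the X box, were not called in these comparisons: Rfxap differed by -0.42 ± 0.64 (SE, adjusted p = 0.756) and Rfxank by 0.55 ± 0.50 (SE, adjusted p = 0.566) between KEAP1-KO and WT tumors, and Rfx5 was too low to be tested in tumors.

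The cell types that carry class II were followed by their markers. In Experiment A 8 of 8 macrophage markers fell in KEAP1-KO tumors, from Cd68 (fell by 0.38, adjusted p = 0.041) to Aif1 (fell by 2.07, adjusted p = 0.000256), with summed normalized counts of 4967 to 7051 in WT and 2524 to 2995 in KEAP1-KO tumors. Of 6 dendritic cell markers, Itgax fell by 0.83 (adjusted p = 0.000626) and Ccr7 by 1.63 (adjusted p = 0.00159), and 4 were not called. The Itgax row was also read in every cell library, at 6.39 to 6.83. Of the B cell list only Ms4a1 and Pax5 were listed. Ms4a1 differed by 0.27 (adjusted p = 0.497), while Pax5 rose in KEAP1-KO tumors by 2.36 (adjusted p = 1.63e-06), and the Pax5 row was also higher in KEAP1-KO cells than in WT cells by 3.32 (adjusted p = 6.06e-09).

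In Experiment B 3 of 8 macrophage markers rose in DKO tumors, with sums of 3999 to 4549 in KEAP1-KO and 4806 to 6288 in DKO tumors. None of 4 endothelial markers was called in Experiment A or Experiment B. In cells the defining macrophage markers Adgre1 and Aif1 had 0 reads in every library, Csf1r had 4 reads over all cells, and Cd68, which encodes a lysosomal glycoprotein, was at 3.58 to 5.0 in WT and 6.74 to 6.91 in KEAP1-KO cells (2.38, adjusted p = 1.8e-05).

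By the correlation of log2 values over the 16 tumors, which share 4 groups, the rows most like Cd74 among 15503 rows with a symbol were H2-Aa (Pearson r = 0.995) and then Gm2a (0.987), which encodes the GM2 activator, Akna (0.985), H2-Ab1 (0.985), Dock8 (0.982), Lcp1 (0.981), the gene of L-plastin, and Csf1r (0.979), the receptor of colony-stimulating factor 1. H2-DMa correlated with Cd74 at 0.911, H2-DMb1 at 0.870 and H2-DMb2 at 0.756. The non-members most like H2-DMa over the tumors were Tasl (0.937), Pilrb2 (0.924), Ms4a4c (0.922), Slco3a1 (0.921) and Clec4a2 (0.920). Over the 12 cell libraries, which share 3 groups, they were Sugp1 (0.958), Gli2 (0.946), Sox9 (0.944), Ugt1a5 (0.936) and Stx11 (0.934), and H2-DMb1 correlated with H2-DMa at 0.828 and H2-DMb2 at -0.151. None of these 5 rows was among the 5 most like H2-DMa over the tumors.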

How the data were processed

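RNA-seq of 12 libraries of cultured 3LL cells and 16 tumors was used. Per the study's methods the authors removed ribosomal RNA, made directional libraries, ran Salmon on GENCODE mouse transcripts, and used iDEP. The methods name TPM, but the deposited values are log2 values, log2(normalized count + 4), as read from the table: undoing the log gave whole reads divided by 1 factor per library (within 0.05 of a read). The planned limma test was therefore run on the deposited log2 values, and no count model was run as the main test. The extraction protocol in the labels names mouse liver, and the study's own description of cells and tumors was used. No other column of values was in the table (0).

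limma 3.58.1 in R 4.3.3 (lmFit, eBayes with a trend) was fitted to 34215 rows of the tumors, 29744 of the cells and 37246 of all libraries, leaving out rows that did not reach 5 normalized counts in 4 libraries or more, with Benjamini-Hochberg adjustment over all rows of a fit and a threshold of 0.05. Fold differences are on the scale of the log2 values and understate low rows. Scripts used pandas 2.3.3 and scipy 1.17.1. The fit was tested on simulated data. Members and lists were chosen with earlier results of these data known. Named genes are all members, Keap1, Nfe2l2, Nqo1, Ptprc, the RFX genes, Ctss, up to 4 called pathway rows per comparison, markers of the lists described, and the 5 rows most like Cd74 and H2-DMa. Ratios of reads between tumors and cells have exact 95% intervals. Alternatives were a pseudocount of 0.4, no filter, a mean filter of 25, quantile normalization, median centring, only the groups compared, no trend, voom on recovered reads, the replicate number as a block and each library left out. Rows summed per gene and only rows with a symbol were added after the data were seen. Row annotation came from GENCODE vM21 (96.95% of transcript rows found), and promoters from RefSeq. Results for fibroblast, T cell, NK cell, neutrophil and keratinocyte markers are in the closing section.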

Additional observations from a re-analysis of the deposited data

Results flagged for a closer look

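Of 54 member groups of 4 libraries with any spread, 7 held a library that stood far from the other 3 by Dixon's test. The chance rate of about 1 in 20 holds for continuous values and cannot be set against this count. Where 3 libraries have 0 reads and 1 has any, the test flags it whatever its reads. Most of them rest on a few reads beside libraries with none: H2-Ab1 in WT cell library 3 (2.35), H2-Eb1 in KEAP1-KO cell library 2 (2.29), Cd74 in DKO cell library 2 (2.84), Ciita in DKO cell library 4 (2.28) and H2-Eb1 in KEAP1-KO tumor 3 of Experiment A (3.77). H2-Eb1 in DKO tumor 1 was low, at 2 (0 reads), while the other DKO tumors had 5.39 to 5.82. H2-DMa in KEAP1-KO cell library 3 was low, at 4.45, beside 4.91 to 4.96.

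The effect of KEAP1 loss differed between tumors and cells by limma, tumors minus cells, for H2-Aa (-3.11), H2-Ab1 (-3.08), H2-Eb1 (-3.45), H2-DMa (-2.89), H2-DMb1 (-2.35), Cd74 (-3.55), Ciita (-2.40) and Ifi30 (-0.97). The effect of NRF2 co-deletion differed for H2-Aa (1.40), H2-Ab1 (1.46), H2-DMa (1.55), Cd74 (1.50) and Ciita (1.57). H2-Aa, H2-Ab1, H2-Eb1, Cd74 and Ciita are at or near 0 reads in cells and entered the fit through the tumors, so their values restate the tumor differences and do not show another effect in cells. For H2-DMa, H2-DMb1 and Ifi30 the listed rows had opposite signs in tumors and cells, but the tumor call of H2-DMa was lost with its rows summed and that of Ifi30 under several settings.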

How the results depend on the processing

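No called difference of a member changed direction under the alternatives run. H2-DMb2 in cells was too low to be tested without WT library 3, KEAP1-KO library 4 or DKO library 2 or 4. Of 690 values of single members under alternatives, over the comparisons within tumors other than DKO against WT, within cells and of the effects between tumors and cells, 640 kept their side of the threshold, 38 lost the call and 12 gained it. The following counts of members called moved by over 1.5 times. Smaller moves included, for KEAP1-KO against WT tumors (9), 6 with voom, 7 with only the groups compared and 7 or 8 without single libraries, and, for DKO against KEAP1-KO cells (3), 2 with the pseudocount of 0.4, no filter, quantile normalization and only the groups compared. In these tumors the H2-DMb2 call was also lost with no filter, quantile normalization and median centring. The Ifi30 call was also lost there with no trend, and the H2-DMa call with rows summed per gene. Between KEAP1-KO tumors of Experiments B and A (1), a mean filter gave 3, median centring 2, rows with a symbol 3, rows summed per gene 4, voom 0 and only the groups compared 0, with 0 to 3 when single libraries were left out. Between DKO and WT tumors (1), the pseudocount of 0.4, no filter, quantile normalization, median centring, no trend, voom and only the groups compared gave 0, and leaving out single libraries 0 to 1. Between DKO and KEAP1-KO cells (3), leaving out single libraries gave 1 to 3. The mean filter of 25, which tests fewer members, gave 4 for WT tumors against cells (8), 4 (3 higher, 1 lower) for DKO tumors against cells (7 higher), 5 for the difference in the KEAP1 effect (8) and 3 for that in the NRF2 effect (5). Voom gave 3 and 1 for these differences, and the pseudocount of 0.4 gave 1 for the latter. The counts between tumors and cells include members that entered the fit through the tumors alone, so they say nothing about stability. For the other moved values the cause was not tested.

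The pathway list moved more. Rows summed per gene gave 7 (2 higher, 5 lower) instead of 4 for KEAP1-KO against WT tumors, 5 (4 higher, 1 lower) instead of 3 for DKO against KEAP1-KO tumors, 3 instead of 1 for DKO against WT tumors, 4 (1 higher, 3 lower) instead of 2 for KEAP1-KO against WT cells, and 6 and 4 instead of 2 each for the differences between tumors and cells in the KEAP1 and NRF2 effects. For KEAP1-KO tumors of Experiments B and A (1), no filter, no trend, voom, only the groups compared and the lowest of the left-out libraries gave 0, and the highest 1. For DKO against WT tumors the pseudocount, the mean filter, voom, only the groups compared and the lowest of the left-out libraries gave 0. No trend gave 0 for KEAP1-KO against WT cells and 1 for DKO against KEAP1-KO cells (3). For DKO against WT cells (1), no filter, quantile normalization, median centring, no trend, voom, only the groups compared and the lowest of the left-out libraries gave 0. The mean filter gave 7 for KEAP1-KO tumors of Experiment B against cells (12). For the KEAP1 effect the pseudocount and voom gave 1, and for the NRF2 effect the pseudocount and voom gave 0, quantile normalization 1 and the lowest of the left-out libraries 1.

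The labels do not say whether libraries with the same replicate number belong together, such as tumors of 1 mouse. Every correlation of same-numbered deviations was under 0.1, and only between WT and DKO cells was each number's own the highest (0.011 to 0.033). Such correlations cannot show whether the numbers pair mice. The main fits took no account of the mice. With the replicate block, H2-DMb2 (-0.88, adjusted p = 0.139) and Ifi30 (-0.52, adjusted p = 0.0847) lost the call between KEAP1-KO and WT tumors, H2-DMa (-0.96, adjusted p = 0.0558) lost it between DKO and KEAP1-KO cells, and the pathway list had 1 call for KEAP1-KO against WT cells and 0 for DKO against WT cells.

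Between tumors and cells the median of all rows was 0.16 to 0.23 above 0 and moved to between -0.19 and -0.07 with median centring, which changed the calls for WT tumors against cells from 9197 higher and 5253 lower to 4726 and 8677. Without the length correction the ratio of H2-Aa to H2-DMa moved from 0.905 to 3.93 in WT tumors and from 0.294 to 1.28 in the KEAP1-KO group of that experiment, and that of H2-Ab1 to H2-DMb1 from 2.60 to 3.85 and from 0.742 to 1.10. A row that was not called can still have changed. In simulated tumor data the fit recovered 20% of rows given a log2 change of 1 and 88% of rows given one of 2. There 200 of 34215 rows were changed, and all rows had the same assumed spread. In the real KEAP1-KO against WT tumors 1920 rows were called higher and 2563 lower, so these shares need not hold for the real data.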

Other observations

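Other cells of the tumors were followed by markers chosen with earlier results known. Between KEAP1-KO and WT tumors of Experiment A, 1 of 2 T cell markers tested fell (Cd4 fell by 1.65, adjusted p = 0.00226). The 4 natural killer cell markers summed to 22.07 to 44.77 normalized counts in WT tumors and to 0 to 0.97 in KEAP1-KO tumors. The 2 tested, Klrk1 and Gzma, the gene of granzyme A, passed the filter only through WT and DKO tumors. They could not be called higher in KEAP1-KO tumors, so their falls of 1.74 and 1.84 are not counted as results. Of 3 neutrophil markers, S100a9 fell by 2.16 (adjusted p = 0.00853) and Csf3r by 2.33 (adjusted p = 5.64e-05). Of 4 fibroblast markers, Dcn, the gene of decorin, fell by 1.78 (adjusted p = 2.05e-05), and neither of 2 keratinocyte markers was called.

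In Experiment B, comparing DKO with KEAP1-KO tumors, Csf3r rose by 1.27 (adjusted p = 0.0133) and Dcn by 2.85 (adjusted p = 2.66e-07). The natural killer cell markers summed to 0 to 2.26 normalized counts in KEAP1-KO tumors and to 11.09 to 35.61 in DKO tumors. Klrk1 could not be called lower in DKO tumors, so its rise of 1.68 is not counted as a result. Of 6 dendritic cell markers Ccr7 rose by 1.03 (adjusted p = 0.0464, with overlap) and Flt3 fell by 1.53 (adjusted p = 0.0064). None of 2 T cell, 2 B cell or 2 keratinocyte markers was called there.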
